A study of Homo sapiens with 35 samples.

Results

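Transcript levels of 10 genes around the transcription factors NRF1 and NRF2 were followed while RPMI-8226 cells, an established human multiple myeloma line, recovered from a carfilzomib pulse. The genes were taken by symbol among the 19665 protein-coding entries of the count table. They are NFE2L1, NFE2L2 and NFE2L3 (factors), KEAP1 and BACH1 (inhibitors), MAFF, MAFG and MAFK (dimer partners), and DDI2 and NGLY1 (activators of NRF1). All 10 had counts in every library, from 55 (MAFF) to 5845 (NFE2L1).

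RNA was sequenced from 5 subcultures on each of 7 days (0, 1, 2, 4, 6, 8 and 10), 35 libraries in all. Day 0 was sampled before the drug, although the labels give the carfilzomib treatment (750 nM for 1 h) for the day 0 libraries too. Day 1 followed a day after the pulse, and later days were sampled just before a regular change of medium, so that in comparisons of those days with day 0 or day 1, time and age of the medium cannot be told apart. All subcultures were split from a single expanded culture, and p-values therefore measure the spread between subcultures of 1 line. The paper describes 5 subcultures for RNA sequencing over all days, so that libraries of different days appear to be repeated samples of them. The main fit and the ratio tests treated the days as independent groups. Libraries held 6519392 to 10962890 counts. All 9 plasma cell markers examined were detected, and their summed level was 6371 to 7281 CPM (counts scaled for library size) on day 0 and 2590 to 2946 CPM on day 1. JCHAIN made up most of the day 0 sum, with means of 4757 CPM on day 0 and 1437 CPM on day 1. The means of XBP1 (441 and 456 CPM), PRDM1 (91.2 and 95.6 CPM) and SLAMF7 (23.9 and 25.0 CPM) were not lower on day 1, while those of the remaining markers were. The summed level of 5 T cell markers was 4.41 to 13.8 CPM, of 5 monocyte markers at most 2.21 CPM, of 4 erythroid markers at most 5.17 CPM and of 5 stromal markers at most 2.53 CPM. CD3D and LYZ were each below 1 CPM, whereas CD8A reached 10.2 CPM, CD3E 4.81 CPM and CD14 2.15 CPM. Retained-intron transcripts held 6.52 to 8.05% of all counts on day 0 and 4.58 to 5.77% on day 1. Mitochondrially encoded genes held 7.97 to 11.9% of protein-coding counts on day 0 and 5.52 to 7.51% on day 1. The part of these shifts in the results was not tested, and in bulk RNA fewer cells with a transcript and less transcript per cell cannot be told apart.

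NRF1, encoded by NFE2L1, is made as a membrane protein of the endoplasmic reticulum. It is normally extracted by the ATPase p97 (VCP) and degraded, and when proteasomes are inhibited, deglycosylation by NGLY1 and cleavage by the protease DDI2 release an active factor that drives proteasome subunit genes. NRF2, encoded by NFE2L2, is held by KEAP1 for ubiquitination by the CUL3 ligase and escapes it under oxidative or electrophilic stress. Both factors bind antioxidant response elements as dimers with a small MAF protein, and BACH1, a heme-sensitive repressor, competes for such sites. Much of this control acts on the proteins, which were not measured in these libraries.

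In the GRCh38 annotation the factors lie at chr17:48048329-48061545 (NFE2L1, plus strand), chr2:177218667-177392756 (NFE2L2, minus) and chr7:26152198-26187137 (NFE2L3, plus). KEAP1 lies at chr19:10486125-10503558 (minus) and BACH1 at chr21:29194071-29630751 (plus). MAFF lies at chr22:38200767-38216507 (plus), MAFG at chr17:81918270-81927735 (minus) and MAFK at chr7:1530702-1543043 (plus), DDI2 at chr1:15617458-15669044 (plus) and NGLY1 at chr3:25718944-25790039 (minus). Levels are per gene and cover its protein-coding transcripts. All but NFE2L1 and KEAP1 overlap another protein-coding gene, most of them on the opposite strand (HNRNPA2B1 with NFE2L3, GRIK1 with BACH1, PLA2G6 with MAFF, TMEM184A with MAFK, OXSM with NGLY1, AGPS and HNRNPA3 with NFE2L2), while SIRT7 overlaps MAFG and RSC1A1 overlaps DDI2 on the same strand. These overlaps are of whole gene spans, introns included, and overlap of exons was not examined. The strand setting of the counting is not given in the sources used here. Reads of genes that share exon sequence may therefore not be separable.

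Promoter sequences are shown for 4 of the genes, chosen after their values were seen because their transcripts moved in opposite directions on day 1: NFE2L1 and BACH1 fell, and KEAP1 and MAFG rose. The sequences are from RefSeq (GRCh38.p14), run 5′ to 3′ on the strand of the gene, end at or before the transcript start and leave out annotated exon bases. Capitals mark matches on either strand to TGANNNNGC, a loose form of the antioxidant response element core TGACNNNGC, or to TGANTCA, the core of NF-E2 and AP-1 type sites. These motifs can overlap, and every TGACNNNGC match is also a TGANNNNGC match.
NFE2L1, chr17:48048109-48048328, plus strand: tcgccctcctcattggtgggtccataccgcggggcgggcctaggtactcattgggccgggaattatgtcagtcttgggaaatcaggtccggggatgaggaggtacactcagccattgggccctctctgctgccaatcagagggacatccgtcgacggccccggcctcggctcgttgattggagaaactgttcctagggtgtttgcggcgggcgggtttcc
BACH1, chr21:29298672-29298921, plus strand: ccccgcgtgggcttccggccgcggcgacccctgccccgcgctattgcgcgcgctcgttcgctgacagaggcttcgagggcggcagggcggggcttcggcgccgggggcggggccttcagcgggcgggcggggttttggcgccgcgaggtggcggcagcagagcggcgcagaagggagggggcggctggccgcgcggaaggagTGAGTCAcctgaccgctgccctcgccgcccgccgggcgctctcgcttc
KEAP1, chr19:10502897-10503021, minus strand: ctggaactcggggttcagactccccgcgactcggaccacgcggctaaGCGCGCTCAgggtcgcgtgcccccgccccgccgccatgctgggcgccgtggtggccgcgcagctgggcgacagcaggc
MAFG, chr17:81927736-81927985, minus strand: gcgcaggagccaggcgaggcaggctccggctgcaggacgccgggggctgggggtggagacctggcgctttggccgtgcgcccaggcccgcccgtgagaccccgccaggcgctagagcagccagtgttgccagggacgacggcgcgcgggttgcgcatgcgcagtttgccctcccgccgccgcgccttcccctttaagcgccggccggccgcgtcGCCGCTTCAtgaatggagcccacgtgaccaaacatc
The NFE2L1 run held no match, that of BACH1 held a TGANTCA match, and those of KEAP1 and MAFG each held a TGANNNNGC match. The runs show 1 start per gene and do not separate genes that rose from genes that fell, since another of the 3 BACH1 windows held TGANNNNGC outside exons and the other KEAP1 window held no match. RefSeq windows of 300 bases were found for 9 members (16 windows), and 6 of the 9 had TGANNNNGC in at least 1 window, against 47.1% of 27305 genes. TGACNNNGC was present for 2 members (KEAP1 and MAFF, in each case within annotated exon bases and therefore not shown), against 16.1% of genes, and TGANTCA for 1 (BACH1), against 9.37%. Genes with several windows had more chances of a match. MAFK was not among the genes with a window. A match describes letters only and is not evidence of binding.

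All 10 members differed between days (edgeR quasi-likelihood F test over the 7 days, highest adjusted p = 9.57e-06), as did 64.7% of the 17999 entries tested. Across the 60 comparisons of a member with day 0, 45 passed an adjusted p of 0.05, with 15 higher and 30 lower, and 6 exceeded a 2-fold change. On day 1, 9 of 10 members were called, where 52.7% of all entries and 70.8% of the 12340 entries above the low-count filter were; 4 were higher (25.4% of entries) and 5 lower (27.3%). Day 2 had 9 called members (47.7%), of which 2 were higher (23.2%) and 7 lower (24.4%). Day 4 had 7 (39.1%), with 2 higher (19%) and 5 lower (20.1%). Day 6 also had 7 (34.5%), but with 3 higher (17.5%) and 4 lower (17%). Day 8 had 6 (36.8%), with 2 higher (18.2%) and 4 lower (18.6%), and day 10 had 7 (31.9%), with 2 higher (16.1%) and 5 lower (15.8%). Changes above 2-fold were found for 1 member on day 1 (20.4% of entries), 3 members on day 2 (15.3%), and 1 member each on day 4 (9.41%) and day 8 (8.18%), with 0 on day 6 (6.71%) and 0 on day 10 (5.93%). Among all entries, the share with every library above those of day 0 was, from the first to the last of the 6 later days, 20.8, 18.5, 13.5, 12.3, 12.4 and 11.3%, and the share with every library below them was 20.1, 18.2, 14.6, 12.4, 12.9 and 11.5%. Since so much of the transcriptome was called on each day, nothing about the group is read from these counts. The median log2 fold change of the members was −0.20 (day 1), −0.56 (day 2) and −0.12 (day 10), beside −0.06, −0.04 and −0.02 over all entries.

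**Figure D1:**
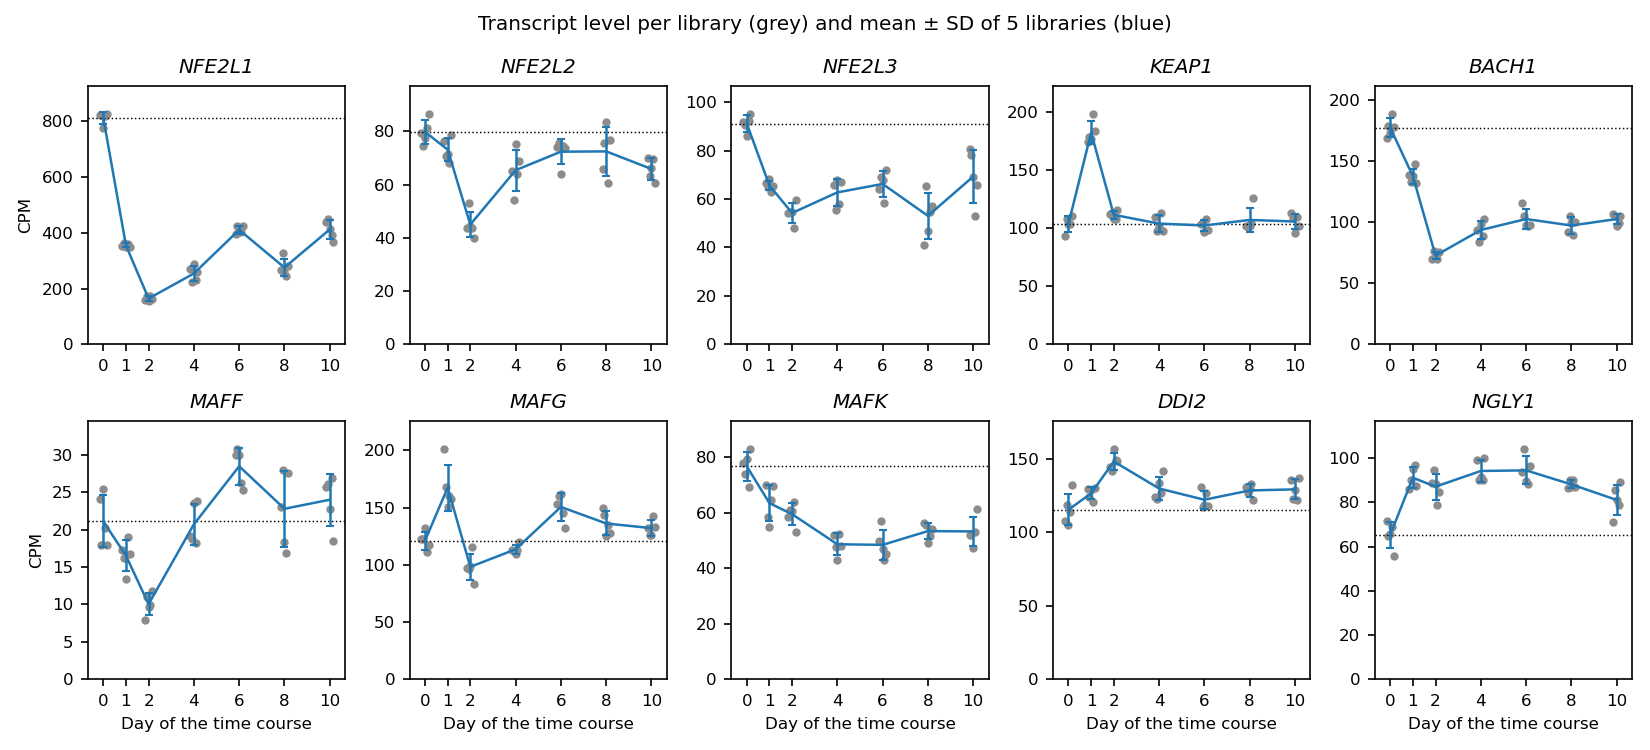
Level of each member in CPM (counts scaled for library size; vertical axis from 0) by day of the time course; grey points are the 5 libraries of a day, blue lines the mean ± SD, and the dotted line marks the day 0 mean. NFE2L1 lies near 813 CPM on day 0 and between 164 and 412 CPM afterward, and KEAP1 is at 182 CPM on day 1 against 102 to 111 CPM on the other days.

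The size of small changes depended on how libraries were scaled. Factors computed over all 65717 transcript entries with a count, in place of protein-coding entries, put the median log2 fold change of expressed protein-coding genes at 0.21, 0.19, 0.12, 0.07, 0.11 and 0.09 for the 6 later days in turn, and library size without factors put it at 0.12, 0.13, 0.10, 0.06, 0.05 and 0.07. With the factors used here it was between −0.0086 and 0.0088. In the fit of all entries 5 members were called on day 1, and the falls of BACH1, MAFF, MAFK and NFE2L3 on that day were lost, as given with each gene.

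NFE2L1 showed the largest change among the members and did not return to its starting level. On day 0 its libraries held 822, 823, 775, 818 and 827 CPM. On day 1 they held 353, 362, 348, 361 and 350 CPM, and on day 2 the values were 159, 172, 156, 171 and 161 CPM. Expression was lower still on day 2, and each library of every later day lay below all of day 0. The log2 fold change was −1.20 ± 0.06 (SE) on day 1 and −2.31 ± 0.06 on day 2 (edgeR, adjusted p = 2.24e-20 and 6.06e-29), so that the mean on day 2 was 20.2% of day 0.

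The later course of NFE2L1 was not monotonic. The mean was 254 ± 27.3 CPM (SD, n = 5) at day 4 and 411 ± 13.2 CPM at day 6. It was then 275 ± 30.8 CPM at day 8 and 412 ± 32.5 CPM at day 10. In the order of levels, day 0 was highest, followed by days 10 and 6, day 1, days 8 and 4, and day 2; libraries of days 10 and 6 overlapped, as did those of days 8 and 4, and no other neighbors in this order did. Libraries of days 6 and 8 did not overlap, with 397 to 425 CPM against 246 to 326 CPM (1.96% of entries fell without overlap). The fall from day 6 to day 8 had a log2 fold change of −0.58 ± 0.06 (edgeR, adjusted p = 2.2e-08), in a comparison where 2.56% of all entries were called, and NFE2L1 was the only member called there. It then rose by 0.58 ± 0.06 from day 8 to day 10 (edgeR, adjusted p = 3.68e-09; 10.1% of entries called). Cell density was readjusted on days 6 and 8, and the part of this step in these values was not tested. On day 10 NFE2L1 was at 50.7% of day 0, a log2 fold change of −0.98 ± 0.06.

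NFE2L2, encoding NRF2, moved far less. Its libraries held 79.3, 74.4, 77.4, 81.2 and 86.6 CPM on day 0 and 76.4, 70.8, 71.3, 68.3 and 78.8 CPM on day 1, so that the groups overlapped. The log2 fold change of −0.12 (95% interval −0.28 to 0.03, from the SE and a normal quantile) did not pass the test (edgeR, adjusted p = 0.188). On day 2 the libraries held 43.6, 53.0, 44.5, 43.8 and 39.96 CPM, all below day 0, a log2 fold change of −0.82 ± 0.08 (edgeR, adjusted p = 1.09e-11). The call on day 2 held in the fit of all entries. Days 6 and 8 were not called at −0.14 each, and the falls of 0.28 on days 4 and 10 were lost when all transcript entries were fitted together (−0.15 and −0.19), that of day 4 also without factors (−0.17).

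NFE2L3, a less studied relative that is also anchored to the endoplasmic reticulum, was lower on all 6 days. It was at 91.2 ± 3.39 CPM on day 0 and between 53.1 ± 9.51 CPM (day 8) and 69.3 ± 11.02 CPM (day 10) afterward. Every later library lay below the lowest on day 0, with log2 fold changes from −0.78 on day 8 to −0.40 on day 10. With all transcript entries fitted together the falls of day 1 (−0.27, adjusted p = 0.067) and day 10 (−0.31, adjusted p = 0.058) were not called by edgeR. The retained-intron entry of NFE2L3, fitted with all entries, had log2 fold changes of 0.02 on day 1 and −0.09 on day 2, neither of them called (edgeR, adjusted p = 1 and 0.665).

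KEAP1 rose on day 1 and was near its starting level from day 2 on. Day 0 libraries held 92.8, 108, 103, 104 and 110 CPM, and day 1 libraries held 174, 178, 176, 198 and 184 CPM, with no overlap. This was a log2 fold change of 0.81 ± 0.06 (edgeR, adjusted p = 1.03e-15), or 1.76-fold. On days 2 to 10 its means lay between 102 and 111 CPM and its log2 fold changes between −0.02 and 0.11, none called. On day 2, 3 of 5 libraries lay above all of day 0, and the value of 0.11 was called in 4 other fits, at 0.14 with only the libraries of the 2 days, 0.14 with biotype sums, 0.23 without factors and 0.29 with all entries.

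BACH1 fell and remained low. Its libraries held 169, 179, 173, 189 and 178 CPM on day 0, 139, 133, 138, 148 and 132 CPM on day 1, and 69.9, 76.4, 72.0, 69.6 and 75.7 CPM on day 2. All later libraries lay below those of day 0. The log2 fold change was −1.29 ± 0.06 on day 2 (edgeR, adjusted p = 2.69e-22) and −0.79 to −0.92 from day 4 to day 10, when means were 93.6 to 103 CPM. The day 1 fall of 0.37 on the log2 scale became −0.16 with all transcript entries fitted together and was then not called (edgeR, adjusted p = 0.121).

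**Figure D2:**
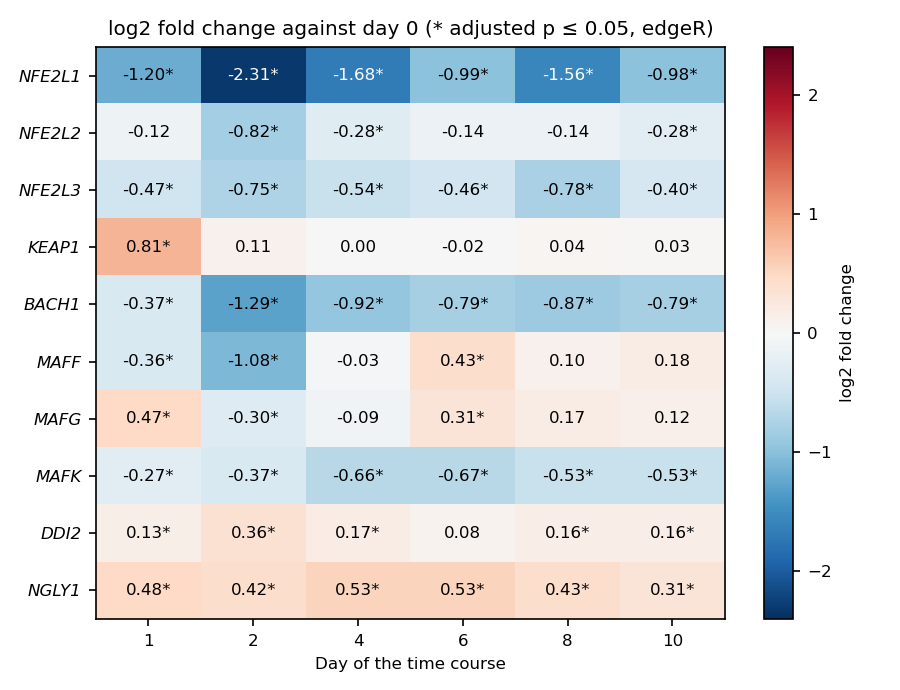
Log2 fold change of each member (rows) on each day (columns) against day 0; red is higher, blue is lower, and asterisks mark an adjusted p up to 0.05 in edgeR. NFE2L1 reaches −2.31 on day 2, BACH1 −1.29 on day 2 and KEAP1 0.81 on day 1.

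The small MAF proteins lack a transactivation domain of their own, and their transcripts are described one by one. MAFG was higher on day 1, with 202, 168, 151, 160 and 157 CPM against 122, 122, 132, 111 and 117 CPM on day 0. All 5 libraries of day 1 lay above day 0, and the log2 fold change was 0.47 ± 0.07 (edgeR, adjusted p = 3.38e-07). It was lower on day 2 (−0.30, not called without factors at −0.17 or with all entries at −0.12), not called on day 4, and higher again on day 6 (0.31 ± 0.07). Its log2 fold change of 0.17 on day 8 (edgeR, adjusted p = 0.0612) was called in 5 other fits, at 0.17 with filterByExpr, 0.18 with only the libraries of the 2 days, 0.22 without factors, 0.23 with biotype sums and 0.28 with all entries. That of 0.12 on day 10 (edgeR, adjusted p = 0.203) was called with biotype sums (0.17) and with all entries (0.21). An entry for the antisense transcript MAFG-AS1 held 1.42 to 3.27 CPM on day 0 and 3.79 to 9.53 CPM on day 1, scaled over all entries. It rose by 1.62 ± 0.26 on the log2 scale (edgeR over all entries, adjusted p = 3.8e-06, with 21.9% of entries called). MAFG-AS1 was also higher on day 2 (1.09 ± 0.26; 18.4% of entries called) and not called later, and reads of MAFG and its antisense transcript may not be separable.

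MAFF, the member with the fewest counts, was lowest on day 2. It held 24.0, 17.9, 25.4, 20.2 and 17.9 CPM on day 0 and 7.89, 10.9, 9.58, 9.87 and 11.8 CPM on day 2, without overlap. The log2 fold change was −1.08 ± 0.14 (edgeR, adjusted p = 1.87e-08). From day 2 to day 4 it rose by 1.05 ± 0.14, and on day 6 it was above day 0 by 0.43 ± 0.13 (adjusted p = 0.00781), with 4 of 5 libraries above all of day 0. Its day 1 value of −0.36 (edgeR, adjusted p = 0.026) was not called without factors (−0.24), with all entries (−0.14), or without day 0 replicate 1 (−0.32), day 0 replicate 3 (−0.28) or day 1 replicate 3 (−0.29).

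MAFK fell more gradually and stayed low. It was at 76.8 ± 5.30 CPM on day 0, 63.5 ± 6.64 CPM on day 1 and 59.5 ± 4.02 CPM on day 2. From day 4 to day 10 its means were 48.4 to 53.4 CPM, with every library below day 0 and log2 fold changes of −0.67 to −0.53 (edgeR, adjusted p at most 3.71e-07). The smaller falls of days 1 and 2 (−0.27 and −0.37) were lost with all entries fitted together (−0.07 and −0.18), that of day 1 also without factors (−0.16). Its nonsense-mediated-decay entry also fell, from 7.96 to 11.8 CPM on day 0 to 3.39 to 4.18 CPM on day 6, scaled over all entries. This was a log2 fold change of −1.44 ± 0.25 (edgeR over all entries, adjusted p = 2.66e-05). That entry was not called on day 1 and was lower on each later day, where 18.4, 14.2, 11.5, 12.8 and 10.3% of all entries were called.

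Of the NRF1-activating enzymes, NGLY1 was higher on all 6 days and DDI2 rose most on day 2. NGLY1 held 71.6, 64.8, 65.6, 68.7 and 55.8 CPM on day 0 and 86.2, 90.03, 95.2, 96.7 and 87.6 CPM on day 1. All 5 libraries exceeded day 0 on days 1 to 8 and 4 of 5 did on day 10. Log2 fold changes ran from 0.31 ± 0.06 on day 10 to 0.53 ± 0.06 on days 4 and 6. With biotype sums the rise of NGLY1 was smaller in relative size. Scaled over those sums, its libraries held 75.6 to 87.8 CPM on day 0, 95.2 to 105 CPM on day 1 and 102 to 115 CPM on day 6. The retained-intron entry of NGLY1 held 14.8 to 18.7 CPM on day 0 and 6.82 to 15.7 CPM on day 1, scaled over all entries. It fell on day 1 by 0.54 ± 0.19 on the log2 scale (edgeR over all entries, adjusted p = 0.0333) and was not called later. DDI2 peaked on day 2, with 144, 142, 157, 150 and 149 CPM against 107, 118, 105, 114 and 132 CPM on day 0, a log2 fold change of 0.36 ± 0.05 (edgeR, adjusted p = 2.07e-07). On other days the log2 fold change was 0.08 to 0.17 and the libraries overlapped day 0. DDI2 was also called higher on days 4, 8 and 10 (edgeR, adjusted p = 0.00938, 0.0186 and 0.016) and not on day 6. The calls of days 8 and 10 were lost without day 0 replicate 3. The day 1 value of 0.13 (edgeR, adjusted p = 0.0341) was not called with RLE factors, filterByExpr or DESeq2 (0.11 each), nor when any 1 of 7 libraries was left out. RSC1A1, which overlaps DDI2, had 3 to 27 counts on day 0 and 62 to 77 on day 1 (edgeR over all entries, adjusted p = 0.083), and how reads were shared between the genes was not tested.

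Members were also compared between consecutive days. From day 1 to day 2, 7 members fell (19.4% of entries did) and DDI2 rose (20.2%; 39.6% called in all), and MAFK and NGLY1 were not called. From day 2 to day 4, BACH1, MAFF, MAFG, NFE2L1 and NFE2L2 rose (13.9% of entries) and DDI2 and MAFK fell (16.7%; 30.6% in all). From day 4 to day 6, NFE2L1, MAFF and MAFG rose (6.09% of entries), 0 members fell (5.98%) and 12.1% of entries were called. From day 6 to day 8, 0 members rose (1.03% of entries) and NFE2L1 fell (1.53%). From day 8 to day 10 NFE2L1 and NFE2L3 rose (5.08%) and 0 members fell (4.97%). Between days 1 and 10, 7 members differed (47.7% of entries). KEAP1 was lower on day 10 by a log2 value of 0.79 ± 0.06, and BACH1, MAFG, MAFK and NGLY1 were also lower (24% of entries), while MAFF and NFE2L1 were higher (23.7%). The NFE2L1 value of 0.21 in this last comparison became 0.10 with all entries fitted together and was not called (edgeR, adjusted p = 0.478).

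Ratios of 2 members within a library, from which scaling factors cancel, were compared between each day and day 0 by an exact two-sided permutation test (5 libraries against 5, smallest possible p = 0.00794, 36 tests). Of the 36 tests, 27 passed an adjusted p of 0.05. NFE2L1 fell relative to NFE2L2 on all 6 days, with log2 changes from −1.48 (day 2) to −0.71 (day 10) (each exact p = 0.00794, adjusted p = 0.0124). NFE2L2 rose relative to its competitor BACH1 on all 6 days, by 0.24 on day 1 (exact p = 0.0238, adjusted p = 0.033) and 0.72 on day 8. The day 1 call was lost when any 1 of 7 libraries was left out. Relative to its inhibitor KEAP1, NFE2L2 was lower on 4 days, with log2 changes of −0.94 and −0.93 for days 1 and 2 and of −0.29 and −0.30 for days 4 and 10. The day 4 call (exact p = 0.0317, adjusted p = 0.0423) was lost when any 1 of 7 libraries was left out.

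Among the MAF genes, MAFG rose relative to MAFK on 5 of 6 days, most on day 6 (0.98) and not on day 2 (0.06, exact p = 0.389). MAFF fell relative to MAFG on days 1 and 2, by 0.80 and 0.74, and did not pass the test on the other 4 days. DDI2 fell relative to NGLY1 on 4 days, by 0.28 to 0.45, with an SD of 0.26 on day 0. The day 1 call did not hold without day 1 replicate 4, nor the day 8 call without any one of day 8 replicates 2 to 5. These ratios used protein-coding entries only. On day 0 the nonsense-mediated-decay entry of NGLY1 held 0 counts in replicate 2 and 89 in replicate 5. Levels of sums over biotypes are scaled over those sums and cannot be set beside protein-coding CPM. Summed over biotypes, DDI2 was at 89.7 to 115 CPM on day 0 and 111 to 118 CPM on day 1. The NGLY1 sums were 75.6 to 87.8 CPM and 95.2 to 105 CPM. Ratios of such sums were not tested.

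**Figure D3:**
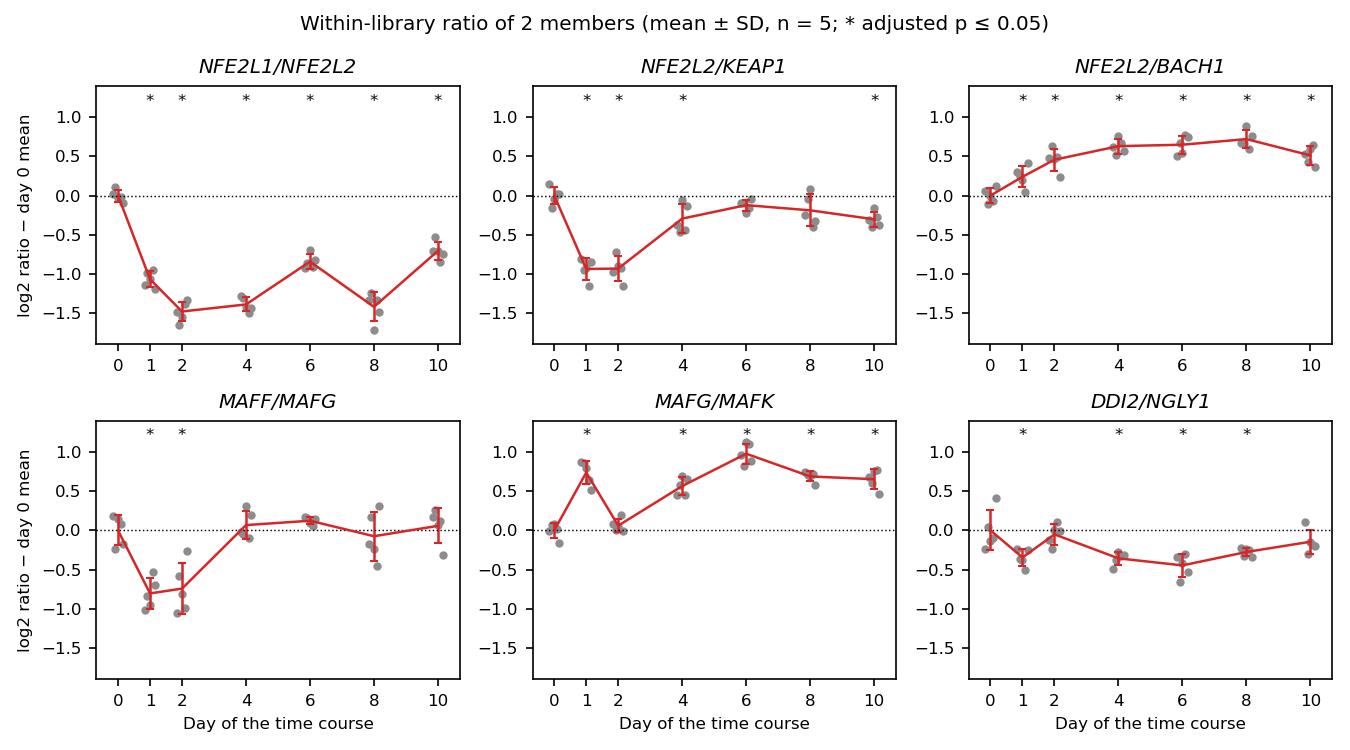
Log2 ratio of 2 members within each library, set to 0 at the day 0 mean, by day; grey points are libraries, red lines the mean ± SD of 5 libraries, and asterisks mark an adjusted p up to 0.05 in the exact permutation test. NFE2L1/NFE2L2 lies below 0 on all later days and NFE2L2/BACH1 above it.

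Lists of genes around the members, written from general knowledge with earlier results of these data known, were compared mainly on days 1 and 10. Of 21 subunits of the 19S regulatory particle, 20 rose on day 1 (25.4% of all entries rose), with a median log2 fold change of 1.91. All 14 subunits of the 20S core rose (median 1.81), led by PSMB3 at 2.42 ± 0.07. On day 10, 6 of the 21 and 1 of the 14 were higher (16.1% of entries), PSMD9 was lower at −0.59 ± 0.19, and the medians were 0.02 and 0.05. The day 10 count of called 20S subunits was 6 without factors and 3 with filterByExpr or DESeq2. Between these days the 19S counts included 7 lower and 4 higher subunits on day 6 (17% and 17.5% of entries) and 5 lower and 4 higher on day 8 (18.6% and 18.2%). The mean of NFE2L1 on day 10 was 50.7% of day 0.

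A list of genes that extract, process or otherwise act on NRF1 was split. Of 14 tested on day 1 (DDI1 had no count), 9 rose (25.4% of entries rose) and 5 fell (27.3% of entries fell). The p97 gene VCP rose by 1.77 ± 0.07 and its cofactors NPLOC4 and UFD1L by 1.43 ± 0.05 and 3.42 ± 0.11, whereas SEL1L, a scaffold of the HRD1 ubiquitin ligase, fell by 1.82 ± 0.06 and SYVN1, HRD1 itself, by 0.49 ± 0.07. OGT, the glycosyltransferase that modifies NRF1, fell by 1.60 ± 0.12. On day 10, UFD1L alone was higher (0.60 ± 0.12) (16.1% of entries) and 4 were lower (15.8%), SEL1L by 1.03 ± 0.06. Without factors, 9 of these genes were called on day 10.

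Of 15 genes that turn over or bind KEAP1 and NRF2, 13 rose on day 1 (25.4% of entries) and CDKN1A, the cell cycle inhibitor p21 that can shield NRF2 from KEAP1, fell by 3.23 ± 0.10. SQSTM1 (p62), an autophagy receptor that binds KEAP1, rose by 2.22 ± 0.07 on day 1, and CUL3, the ligase scaffold, by 0.52 ± 0.07. On day 10, 5 were higher (16.1% of entries) and 4 lower (15.8%), CDKN1A by 3.71 ± 0.10 and SQSTM1 by 0.59 ± 0.07. Of 8 relatives of the factors and their ligases, 4 fell on day 1 (27.3% of entries), among them BACH2 by 1.55 ± 0.15 and FBXO22, a ligase subunit for BACH1, by 1.06 ± 0.12.

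Of 24 NRF2 target genes, 21 rose on day 1 (25.4% of entries), when NFE2L2 itself was not called. HMOX1, heme oxygenase and a gene repressed by BACH1, rose from a mean of 3.98 CPM to 187 CPM, a log2 fold change of 5.56 ± 0.18, and NQO1, a quinone reductase, rose by 3.83 ± 0.12. SLC7A11, the cystine transporter, fell by 1.498 ± 0.08. On day 10, 9 targets were higher (16.1% of entries) and 3 lower (15.8%), with TKT, a pentose phosphate enzyme, at 0.67 ± 0.06 and the ferritin gene FTH1 at −0.94 ± 0.07. HMOX1 was then at 6.05 CPM and not called (edgeR, adjusted p = 0.0556).

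**Figure D4:**
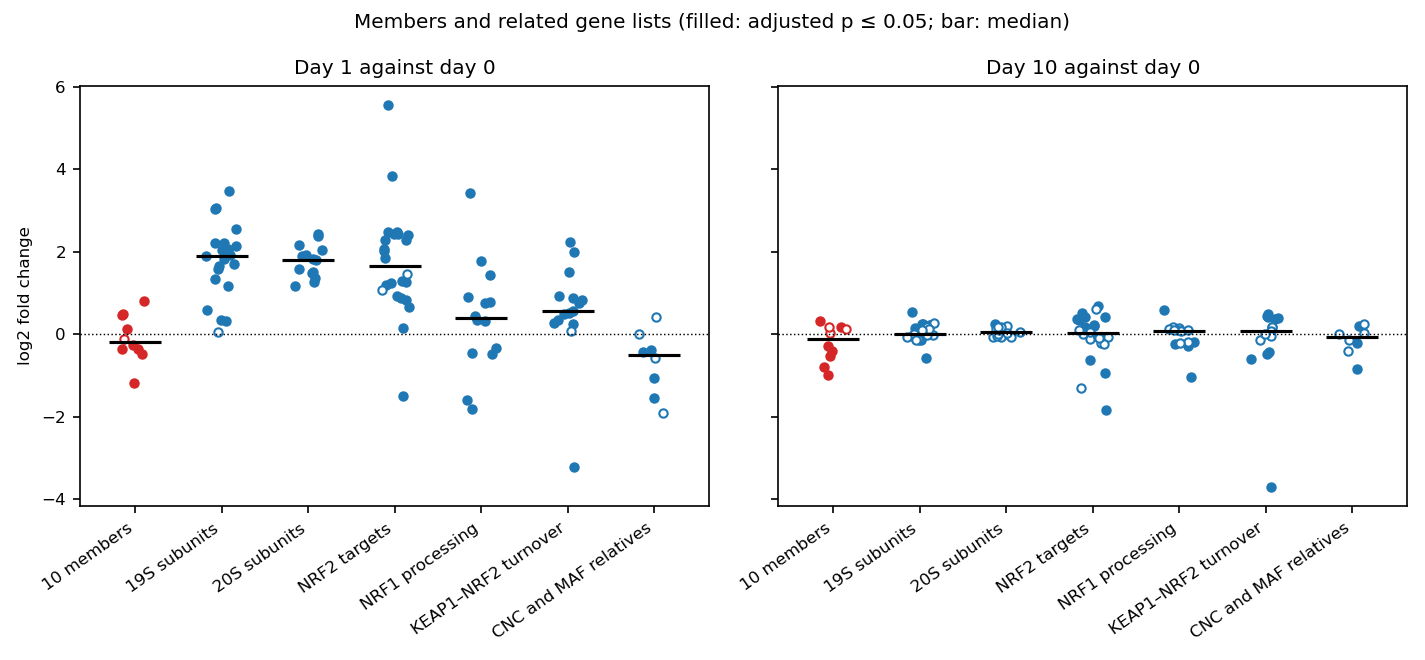
Log2 fold change of the 10 members (red) and of the related gene lists (blue) on day 1 (left) and day 10 (right) against day 0; filled points have an adjusted p up to 0.05 in edgeR and bars are medians. On day 1 the medians of 19S subunits (1.91), 20S subunits (1.81) and NRF2 targets (1.66) lie above that of the members (−0.20), and on day 10 the medians of members and lists lie between −0.12 and 0.09.

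The entries most like each member were found by Pearson's r over the 35 libraries among 12330 other expressed entries. The values are descriptions only, since libraries of a day share their state and the day dominates each course. The genes closest to NFE2L1 were SLC3A2, an amino acid transporter subunit (r = 0.984), CCPG1, a receptor for autophagy of the endoplasmic reticulum (0.982), and PPP1R15A, a regulator of eIF2α phosphatase (0.975). KEAP1 was closest to proteasome genes, PSMB4 (0.968), PSMD11 (0.962) and PSMB7 (0.962). BACH1 was closest to TNFAIP2 (0.959), NAMPT (0.951) and NINJ1 (0.948). For the other 7 members the highest r was between 0.858 (DDI2 with CCDC138) and 0.917 (MAFF with TMEM140). Within the group, r was 0.89 for NFE2L1 with BACH1, 0.82 with NFE2L3 and −0.76 with DDI2.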

How the data were processed

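Total RNA of 35 samples of RPMI-8226 subcultures was made into stranded libraries and sequenced. The authors deposited estimated counts per gene symbol and transcript biotype, made with Kallisto 0.44.0 against a GRCh38.p12 annotation and summarized in R 3.5.0. The paper describes a correction for GC content in Kallisto and an adjustment for gene length in the summary. Beyond these, no normalization had been applied to the deposited expected counts, which were used as whole numbers. Of 19665 protein-coding entries, 1666 had no count and 17999 were tested. Each day was compared with day 0, with the day before it, and day 10 with day 1, in a single edgeR 4.0.16 fit of all libraries (R 4.3.3; TMM factors 0.929 to 1.08; quasi-likelihood test; Benjamini-Hochberg adjustment over all entries; threshold 0.05). The standard error of a log2 fold change is its size over the root of F. CPM are TMM-scaled. Ratios used log2 CPM with a prior count of 2.

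The members and gene lists were chosen with earlier results of these data known. Named genes were all members, for each the 3 most correlated entries, the extreme called genes of each list, and fixed partners. Transcripts of other biotypes were fitted with all 65717 entries that had a count, out of 84647. Alternatives were RLE factors, no factors, the filterByExpr filter (12340 entries kept), DESeq2 1.42.0, a replicate block, only the libraries of the 2 days, each library left out, and a fold cutoff of 2. Sums over biotypes and the fit of all entries were added after seeing the data. No 2 libraries of a day agreed within sampling noise (chi-square per degree of freedom at least 2.53). The B cell markers are not reported here. Gene positions followed GRCh38 annotation, and promoters came from RefSeq.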

Additional observations from a re-analysis of the deposited data

Results flagged for a closer look

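In each of 70 sets of 5 libraries (a member on a day), the highest and lowest value were checked for a gap to the nearest library above 0.71 of the whole range. Chance gives about 1 in 20 sets, and 3 sets were found. NFE2L1 on day 0 was lowest in replicate 3, at 774.5 CPM, with the nearest library at 817.9 CPM. NFE2L2 on day 6 was lowest in replicate 3, at 63.9 CPM, with the nearest at 73.7 CPM. KEAP1 on day 8 was highest in replicate 5, at 125.5 CPM, with the nearest at 104.2 CPM.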

How the results depend on the processing

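Requiring a fold above 2 left 1, 3, 1, 0, 1 and 0 members called against day 0 (days 1, 2, 4, 6, 8, 10). For consecutive days from day 2 on it left 1, 1, 0, 0 and 0, and between days 10 and 1 it left 0. With all entries fitted together, 5 members were called on day 1 and 1 between days 8 and 10. Between days 6 and 8 the count was 2 without factors, with filterByExpr, DESeq2, biotype sums and the replicate block, NFE2L3 being the added member. Between days 8 and 10 it was 1 with only the libraries of those days. Of the 20S subunits 6 were called on day 10 without factors and 3 with filterByExpr or DESeq2. Of the list of genes that act on NRF1, 9 were called on day 10 without factors. The cause was not tested.

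Signs reversed for changes near 0 that were not called. NFE2L2 on day 1 was 0.080 with all entries. MAFF on day 4 was 0.081 without factors, 0.0055 with biotype sums and 0.11 with all entries. MAFG on day 4 was 0.019 without factors and 0.040 with all entries. KEAP1 on day 6 was 0.035 without factors, 0.0017 with biotype sums and 0.041 with all entries. Leaving out single libraries moved KEAP1 between −0.028 and 0.049 on day 4 and between −0.058 and 0.0099 on day 6, and MAFF between −0.084 and 0.041 on day 4. The MAFF/MAFG ratio moved between −0.17 and 0.020 on day 8 and between −0.0011 and 0.15 on day 10, and DDI2/NGLY1 between −0.11 and 0.053 on day 2.

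Without single libraries, 7 to 9 members were called on day 1, 9 at day 2, 7 at day 4, 7 to 8 at day 6, 5 to 7 at day 8 and 6 to 7 at day 10, and 1 to 2 between days 6 and 8 (2 without day 6 replicate 4 or day 8 replicate 2). DDI2 was not called on day 1 without day 0 replicate 1, 2, 3 or 4 or day 1 replicate 1, 3 or 5, on day 8 without day 0 replicate 1 or 3, or on day 10 without day 0 replicate 3, and was called on day 6 without day 0 replicate 5. MAFG was called on day 8 in 5 other fits and without day 0 replicate 2 or 3 or day 8 replicate 3 or 5. Residual correlations of same-numbered libraries were weak (−0.115 to 0.101), and the main fit treated the samples as unpaired. The median was 0.048 for same and −0.033 for different numbers in day 10 against day 0, and −0.054 and 0.011 in day 6 against day 4. By the paper's account the days appear to share subcultures. Weak correlations cannot show whether equal numbers mark the same subculture. With the replicate block, 9 members were called on day 1 and 2 between days 6 and 8. A sign-flip test of paired ratios was not run, as its exact p could not go below 0.0625.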
